A study of Rattus norvegicus with 4 samples.

Results

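Gaps in the nucleosome map of untreated rat sperm were described on chromosome 2 (build rn6). A gap was taken as an interval of 2000 to 20000 bp between the centers of neighbouring nucleosome positions in the table that holds both control libraries. The members were therefore chosen by measured values of the controls, and their number, length and place are a description with no test. There were 5676 gaps among 868879 intervals, which is 0.653% of all intervals.

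In most cells DNA is wrapped around histone octamers at short and regular spacing. During the last stages of sperm formation most histones are exchanged for protamines, and the nucleosomes that remain can be recovered with micrococcal nuclease, which cuts the DNA between them. An interval without a called position shows only that none was called in these libraries at their depth. The intervals are therefore called gaps and not nucleosome-free: only 2758 of them (48.6%) held no read of either treated library at 150 bp or more from their flanks. Runs of unknown bases, repeats and genes at the gaps were not analysed here.

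The 4 libraries came from caudal epididymal spermatozoa of randomly bred Holtzman rats labelled as 75 days old. Of these, 2 were control libraries from rats that drank sterile water only, 1 was from the cyproterone acetate group and 1 from the tamoxifen group. Cyproterone acetate blocks the androgen receptor and has progestogen activity, and it was given by mouth at 20 mg per kg per day. Tamoxifen modulates the estrogen receptors and was given by mouth at 0.4 mg per kg per day, with 60 days of dosing for each drug. Each group had 6 animals, and how many of them a library holds is not stated. The sperm were treated with a reducing agent and checked by microscope for round cells, and DNA near 150 bp was taken for sequencing. With 1 library per drug no test between groups is possible, and the intervals given below cover counting error only.

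Depth limits what a gap can show. The tables give no counts, but occupancy at the summit rose in fixed steps, so it was read as a number of reads. At the called positions of chromosome 2 the 2 controls held 1067555 reads (the shallower control) and 1170574 reads (the deeper control), which is 4.01 and 4.39 reads per kb. The cyproterone acetate library held 5.87 and the tamoxifen library 4.92 reads per kb. Of the positions with reads, 45.2% (cyproterone acetate) to 50.5% (deeper control) had 1 read or less.

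The gaps were mostly a few kb long. Their median length was 3953.5 bp, the quartiles were 2620 and 6311 bp, and the longest reached 19957 bp, against a median interval of 200 bp over the whole chromosome. Together they took up 28.7 Mb, or 10.8% of the mapped span. Another 357 intervals were longer than 20000 bp and covered 15.9 Mb, less than the gaps. A further 9069 intervals were from 1000 to just under 2000 bp long. The gaps are thus only a part of the DNA between control positions.

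Gap numbers did not decline evenly with length. From 2000 to 3000 bp there were 1940 gaps and from 3000 to 4000 bp 927. The numbers then changed little over the next 3 classes of 1 kb, with 627, 577 and 534 gaps up to 7000 bp. They fell to 289 gaps between 7000 and 8000 bp and to 167 in the class after it. The ratio of the class below 7000 bp to the class above it was 1.85, while the ratios between the classes from 4000 to 7000 bp were 1.09 and 1.08.

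The drop after this level stretch was spread differently when gaps were found from the positions of 1 library at a time, treated libraries included. The ratio at 7000 bp was then 1.48 (shallower control), 1.57 (deeper control), 1.81 (cyproterone acetate) and 1.58 (tamoxifen). The ratio at 8000 bp was larger in each of them, at 1.71, 2.02, 2.00 and 2.19 in the same order, while for both controls together it was 1.73. The larger of these 2 ratios was thus at 7000 bp for the pooled controls on chromosome 2 and at 8000 bp in each single library. The 2 ratios of the pooled controls were close, and no counting interval was computed, so a shift of the drop is not shown. On the X chromosome the same rule found 5203 gaps among 341279 intervals, or 1.52%, with a median of 3710 bp. There the class numbers from 4000 bp on were 524, 446, 392, 295 and 166, and the ratios at 7000 and 8000 bp were 1.33 and 1.78.

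**Figure D1:**
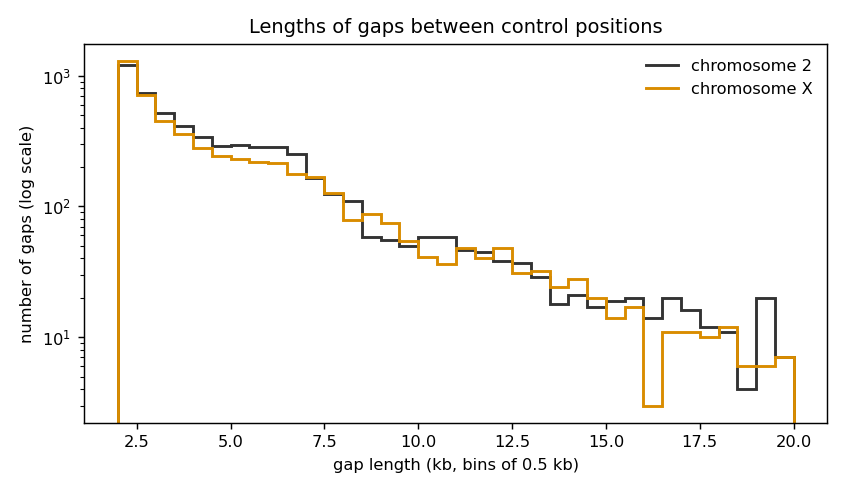
Number of gaps (log axis) by length in bins of 0.5 kb, from the positions of both controls pooled, for chromosome 2 (black) and chromosome X (orange). The line for chromosome 2 is nearly level between 4 and 7 kb, with 627, 577 and 534 gaps per kb of length, and then drops to 289.

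Gaps lay close to one another. The nearest other gap was at a median distance of 5163 bp, and 3482 gaps (61.3%) lay within 10 kb of another or touched it. At 467 positions a single called nucleosome separated 2 gaps, which involved 850 gaps (15.0%). Joined at 10 kb, the gaps formed 3336 groups, of which 2194 were single gaps and 468 held 3 or more, with 2134 gaps in those larger groups. Intervals above 20000 bp were within 10 kb of 434 gaps (7.65%). Part of this nearness is set by the number of gaps on the chromosome, and it was not compared with chance.

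The gaps were unevenly spread along the chromosome. Windows of 1 Mb held between 2 and 85 gaps with a median of 19. The fullest window ran from 162000001 to 163000000 with 85 gaps and 758 control positions. Next came the window from 161000001 to 162000000 with 77 gaps. The windows from 1 to 1000000, at the start of the chromosome, and from 160000001 to 161000000 had 75 gaps each. The 26 windows with the most gaps held 1298 gaps, or 22.9%. At 100 kb, 632 of 2664 windows (23.7%) had no gap.

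The segment from 159000001 to 164000000, the run of windows with over 50 gaps around the fullest one, was picked after its values were seen. Its 5 windows are 1.88% of the windows and held 361 gaps, or 6.36%. Gaps covered 1.95 Mb and intervals above 20000 bp another 1.43 Mb, which left 1.62 Mb with positions. Read density over the segment was 37.0% of the chromosome mean in the shallower control, 38.5% in the deeper one, 41.7% with cyproterone acetate and 35.3% with tamoxifen. Over the part outside gaps and longer intervals the same reads gave 114%, 119%, 129% and 109% of the mean. That filled part has to be read against 120%, the value in each library for all full windows without their gaps and longer intervals. Over the 5 windows together the shallower control, the deeper control and tamoxifen lay below it and cyproterone acetate above it. No counting interval was computed, and the windows were unlike. Each held 1017.5 to 2569 reads of the shallower control and 1456.5 to 4173.5 of cyproterone acetate. Control positions numbered 2.66 to 3.31 per kb in the filled part of the 5 windows, against a median of 3.96 over all windows. The longest chain of gaps with less than 10 kb between them lies in it, from 161976452 to 162374932, with 49 gaps that take up 301 kb of 398 kb.

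The most crowded windows of 100 kb were found in 3 places. The window from 114600001 to 114700000 had 15 gaps and 52 control positions. Over this window the shallower control held 85 reads, the deeper one 112.5, the cyproterone acetate library 127.5 and the tamoxifen library 100 reads. The window from 162200001 to 162300000 had 14 gaps, with 71.5, 69.5, 89 and 59 reads in the same order. The window from 49300001 to 49400000 had 13 gaps but 531, 696.5, 1948 and 1179 reads. In the first and second window few reads accompanied many gaps, while in the last one many reads lay on the DNA between the gaps, and more so in the treated libraries.

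Windows with many gaps also had fewer called positions per kb between the gaps. Reads per kb between the gaps were not computed for each window, and read totals differed widely. The shallower control held 4505.5 reads in the window from 156000001 to 157000000 (68 gaps) and 1031.5 in the fullest one (85 gaps). The density of positions outside gaps and longer intervals was 3.81 per kb (median) in the 26 windows with the most gaps and 4.15 per kb in the 26 with the fewest. The ranges overlapped, at 2.66 to 4.09 and 3.74 to 4.39 per kb. Across the 266 windows the Pearson correlation of gap number and this density was -0.51 and the Spearman correlation -0.50. Both are descriptions, since the windows share 2 libraries and both values come from the same positions.

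**Figure D2:**
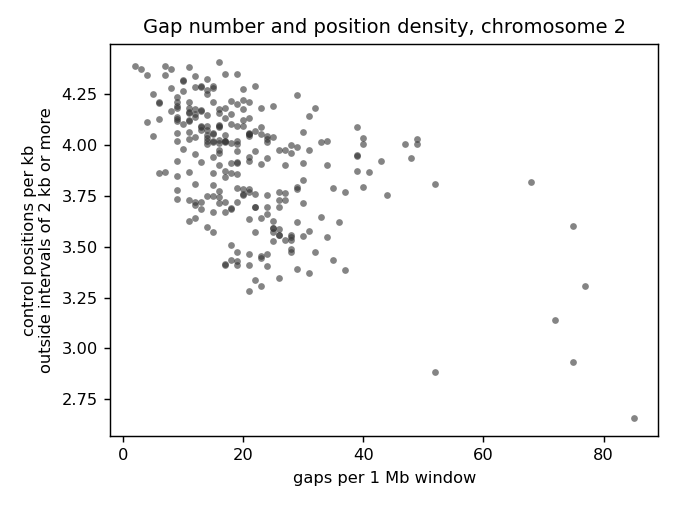
Each point is a 1 Mb window of chromosome 2, with its number of gaps (x axis) and the number of control positions per kb outside gaps and longer intervals (y axis). Windows with over 60 gaps lie at or below 3.82 positions per kb, and the window with 85 gaps is the lowest at 2.66.

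Positions at the rim of a gap were weaker than others in the controls. The gaps were flanked by 10885 positions. In the shallower control flanking positions had a mean of 1.13 reads, against 1.23 at positions that flank no gap. The deeper control had 1.23 and 1.35 reads there. Reads of both controls met at 35.3% of flanking and 42.1% of other positions, and positions with 1 read in all made up 41.7% and 32.9%. The rim was not weak everywhere, since 0.882% of flanking positions had 10 or more reads, against 0.632% of the others. The mean over both controls at flanking positions ranged only from 2.29 to 2.36 reads over 5 classes of gap length.

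By mean reads the weakness ended at the flanking position itself. The next position outward had a mean of 2.60 reads over both controls, close to the 2.58 of all positions, and the tenth position outward 2.66. By the other measures the next position was still slightly weaker. It had 1 read in all in 34.7% of cases and reads of both controls in 41.1%. At positions that flank no gap these shares were 32.9% and 42.1%. Positions with 10 or more reads were more frequent there, at 1.04% against 0.632%. Spacing on the outer side was wider than usual. The interval from a flanking position to its outer neighbour had a median of 255 bp, with quartiles of 160 and 560 bp. The median of all intervals was 200 bp, with quartiles of 145 and 307 bp. The share of intervals of 500 bp or more was 27.6% beside a gap and 8.84% overall. The intervals beside a gap include other gaps, which made up 8.23% of them. They also include intervals above 20000 bp, which shared a flank with 124 gaps.

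Treated reads, which the choice of gaps did not use, were also less frequent at the flanking positions. A control position was counted as read in a treated library where that library had reads within 50 bp. Among positions with 1 control read in all, cyproterone acetate reads were present at 32.5% (exact 95% interval 31.1 to 33.9%) of 4534 flanking and 39.7% of 282058 other positions. With 2 control reads it was 55.3% (53.3 to 57.2%) of 2594 flanking and 62.6% of 209595 other positions. The lower share at the rim thus held at 1 and at 2 control reads. By the choice of the gaps, however, flanking positions have no close neighbour on the side of the gap. Reads of a neighbour can fall within 50 bp of a position, and the part of this in the difference was not tested.

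Tamoxifen reads were present at 29.0% (27.6 to 30.3%) of the flanking and 34.0% of the other positions with 1 control read. With 2 control reads the shares were 49.1% (47.2 to 51.1%) and 56.6%. At 4 control reads the difference was within the counting interval for both drugs, with 65.2% (61.8 to 68.6%) against 67.1% for cyproterone acetate and 62.4% (58.9 to 65.8%) against 64.3% for tamoxifen. At 1 control read the direction turns if only positions with a row in the treatment table are taken, but that choice nearly fixes the outcome. For cyproterone acetate 32.9% of the flanking and 41.0% of the other positions have such a row, and nearly all of these have treated reads. With this choice 1490 of the 4534 flanking positions remain for cyproterone acetate, and the shares become 98.8% and 96.8%. For tamoxifen 1340 remain, with 98.0% and 95.9%. Nothing is read from the direction of these shares.

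The next question was which gaps hold positions with treated reads. With any center strictly between the flanking centers, 4129 gaps (72.7%, exact 95% interval 71.6 to 73.9%) held at least 1 position with cyproterone acetate reads. For tamoxifen 3661 gaps (64.5%, 63.2 to 65.7%) did. Only 817 gaps (14.4%) held none from either drug. Of the positions so counted, 30.7% (cyproterone acetate) and 34.2% (tamoxifen) lay within 50 bp of a flanking center and a further 20.8% and 20.7% within 150 bp. Read density in those outermost 50 bp was 139% and 135% of the chromosome mean. A flanking nucleosome called at a slightly different center in another table falls into this zone, so values with a margin of 150 bp from both flanks are given from here on.

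With this margin 2354 gaps (41.5%, 40.2 to 42.8%) held cyproterone acetate reads and 1907 (33.6%, 32.4 to 34.8%) held tamoxifen reads. Reads of both drugs were in 1343 gaps, of cyproterone acetate alone in 1011 and of tamoxifen alone in 564. Neither drug had reads in 2758 gaps (48.6%), which cover 14.1 Mb. Among gaps with cyproterone acetate reads 57.1% also held tamoxifen reads, and among gaps without them 17.0% did. The cyproterone acetate library is the deeper one, so its higher share alone shows no difference between the drugs.

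The treated reads inside the gaps were few and mostly lay 1 or fewer to a position. There were 3702 positions with 5762.5 cyproterone acetate reads and 2643 with 3861 tamoxifen reads. Positions with 1 read or less made up 63.1% and 66.9% of them. Of the gaps with reads, 1464 held 1 position and 890 held 2 or more of cyproterone acetate, and 1361 and 546 of tamoxifen. A gap held at most 7 positions of the first and 8 of the second library. Of the cyproterone acetate positions 1211 (32.7%) had a tamoxifen position within 100 bp, and 1183 of the tamoxifen positions (44.8%) had one of cyproterone acetate.

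Treated read density inside the gaps was far below the chromosome mean. It was 0.213 reads per kb for cyproterone acetate, or 3.64% (counting interval 3.54 to 3.73%) of its mean over the chromosome. For tamoxifen it was 0.143 reads per kb, or 2.90% (2.81 to 3.00%). The controls are at 0 here by the choice of the gaps. Without the margin the values were 7.83% and 6.78%.

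Density also fell steeply with distance from the rim. Between 150 and 500 bp from the nearer flank it was 15.1% of the mean for cyproterone acetate and 12.0% for tamoxifen. Between 500 and 1000 bp it was 4.05% and 2.97%, and between 1000 and 2000 bp 1.37% and 1.24%. Beyond 2000 bp it was 0.463% (260 reads over 9571 kb) and 0.432% (203.5 reads). The treated reads thus lay mostly near the rims, and the middle of long gaps was almost empty in both treated libraries. The controls are at 0 there by the choice of the gaps. Outside the gaps, from 1000 to 5000 bp beyond the flank, all 4 libraries lay between 86.0% and 88.1% of their mean.

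**Figure D3:**
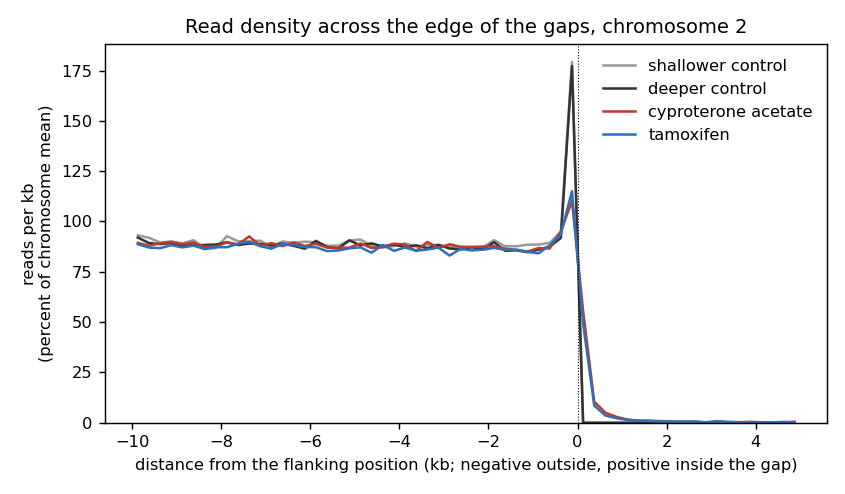
Reads per kb as percent of the chromosome mean of each library (y axis) against distance from the flanking position in kb (x axis). Distance is negative outside and positive inside the gap. Reads are summed over both edges of the 5676 gaps in bins of 250 bp. From 1 kb inward a bin takes only gaps long enough to hold it on both sides of their middle. At 1000 to 1250 bp these are 8946 of 11352 edges, so values there differ from those by distance in the text. The controls peak at the flank and are at 0 inside because they define the gap, while both treated libraries fall to 1.17% and 1.05% of their mean between 1 and 2 kb inside.

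Longer gaps were not more often entered by treated reads. Cyproterone acetate reads were in 43.1% of 1940 gaps of 2000 to 3000 bp and in 39.4% of 510 gaps of 10000 bp or more, with values from 39.7% to 43.9% between. The tamoxifen shares were 35.4% and 30.0%, with 32.3% to 36.4% between. The counting intervals of the shortest and longest class overlapped for both drugs, for tamoxifen only narrowly (33.2 to 37.5% and 26.1 to 34.2%). An overlap does not show equal shares, and the difference was not tested. Over the same range the density dropped from 8.95% to 1.22% of the mean for cyproterone acetate and from 6.97% to 0.914% for tamoxifen. The longest gaps thus held treated reads no more often than the shortest, and per kb far fewer. The share of gaps empty for both drugs was 47.2% in the shortest class and 52.2% in the longest.

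**Figure D4:**
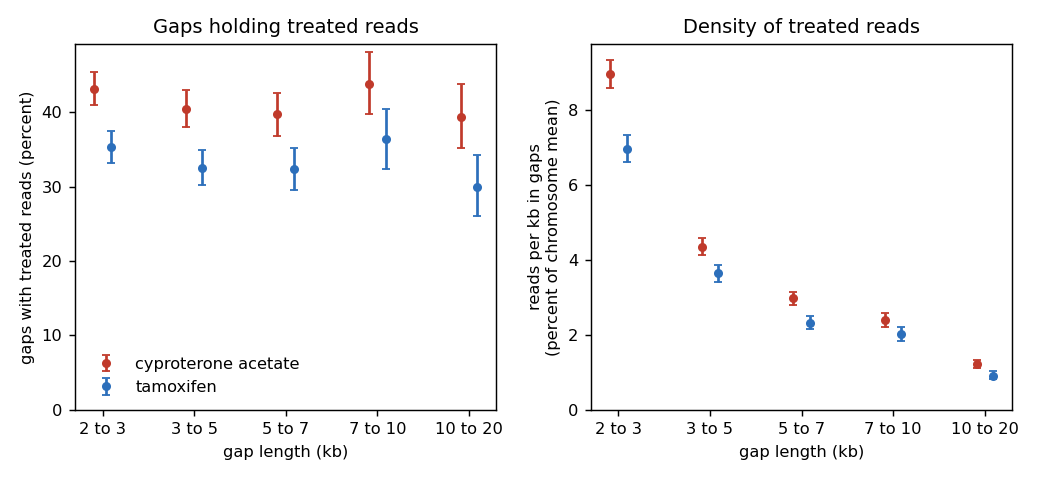
Left, percent of gaps on chromosome 2 that hold treated reads at least 150 bp from both flanks; right, treated reads per kb inside as percent of the chromosome mean, both by gap length in kb. Bars are 95% counting intervals (exact binomial left, Poisson right), and the shares stay between 30.0% and 43.9% while the density falls to 1.22% and 0.914%.

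Intervals on both sides of the limits of 2000 and 20000 bp were compared, with no counting interval computed, so a break is neither shown nor excluded. Just under the lower limit, at 1900 to 1999 bp, 44.9% of 294 intervals held cyproterone acetate reads and 39.5% tamoxifen reads. From 2000 to 2100 bp it was 48.4% and 32.5% of 289 gaps. Among 27 gaps of 19000 bp or more the shares were 33.3% and 29.6%, and among 44 intervals just over 20000 bp they were 34.1% for each drug. Density was lower above each limit. Across the lower limit it went from 0.831 to 0.745 (cyproterone acetate) and from 0.493 to 0.404 reads per kb (tamoxifen). Across the upper limit it went from 0.0486 to 0.0313 and from 0.0330 to 0.0242 reads per kb. In all 357 intervals over 20000 bp treated density was 0.304% and 0.297% of the mean.

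Whether treated reads enter control gaps more than reads of another control can be seen by taking gaps from 1 library at a time. This comparison was added after seeing the data. Gaps of the deeper control alone numbered 6643, and 50.6% of them held reads of the shallower control, 64.7% of cyproterone acetate and 57.8% of tamoxifen. Relative to the mean of each library the densities there were 7.77% (7.62 to 7.93%), 9.69% (9.54 to 9.84%) and 8.39% (8.24 to 8.54%). Gaps of the shallower control alone numbered 7698. There the deeper control was at 13.2%, cyproterone acetate at 15.8% and tamoxifen at 13.2%.

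Tamoxifen reads were thus as dense in the gaps of the shallower control as reads of the other control, and 1.08 times as dense in those of the deeper one. For cyproterone acetate these ratios were 1.20 and 1.25. The controls were called together in 1 table and each treated library in another, so differences of this size cannot be told apart from effects of the calling. Taken the other way round, the 5890 gaps of the cyproterone acetate library held reads of the shallower control at 4.69%, of the deeper one at 4.52% and of tamoxifen at 4.37%. Gaps of the tamoxifen library held the controls at 7.10% and 7.39% and cyproterone acetate at 8.10%. Every library thus left few reads in the gaps of every other.

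**Figure D5:**
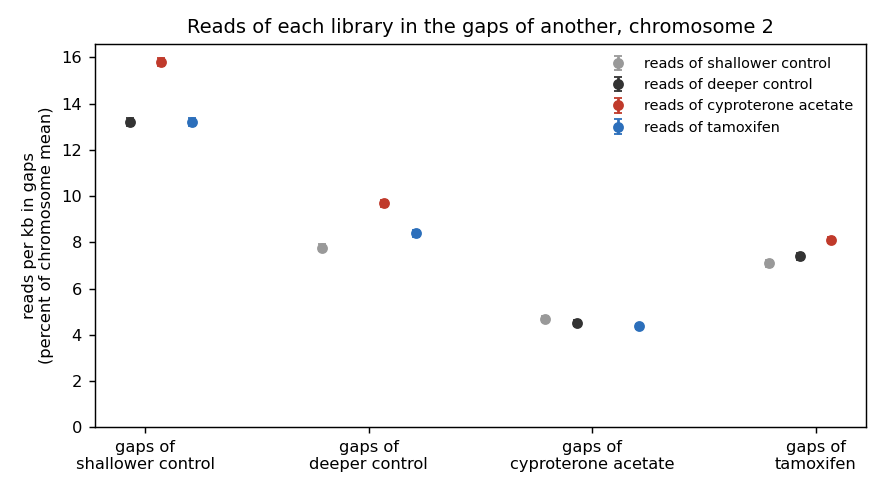
Reads per kb of each library (colour) inside the gaps found from 1 other library (x axis) on chromosome 2, as percent of that library's chromosome mean, with 95% Poisson intervals that are mostly smaller than the points. All values lie between 4.37% and 15.8%, and the gaps of the cyproterone acetate library, the one with the most reads, hold the least.

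The gaps of the controls and of the treated libraries were largely in the same places. Gaps took up 10.8% of the mapped span in the controls, 11.1% in the cyproterone acetate and 11.7% in the tamoxifen library. Treated intervals above 20000 bp were left out, so a control gap inside one counted as not covered. Of the 5676 control gaps, 88.3% were covered for at least 50% of their length by gaps of the cyproterone acetate library alone, and 83.9% of the 5890 gaps of that library were so covered by control gaps. For tamoxifen the shares were 89.4% of the control gaps and 76.0% of 6498. A control gap lay wholly within a gap of the treated library in 28.8% (cyproterone acetate) and 36.7% (tamoxifen) of cases.

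The 5 longest gaps held few treated reads, and their flanks had from 1 to 6 control reads in all. The gap from 174956462 to 174976419 (19957 bp) had 1 read of the shallower control on its left and 1 and 1.5 reads (shallower and deeper) on its right flank. It held 1 cyproterone acetate read beyond the margin and none of tamoxifen. The gap from 208541002 to 208560952 (19950 bp) held 4 cyproterone acetate reads at 3 positions, one of them 9020 bp from the nearer flank, and no tamoxifen read. The gaps from 160160632 to 160180422 (19790 bp) and from 192205302 to 192224927 (19625 bp) held none of either drug beyond the margin. The last of these had the strongest rim of the 5, with 2 reads of the shallower and 4 of the deeper control on its left flank. The gap from 194458832 to 194478454 (19622 bp) held 1 cyproterone acetate and 2 tamoxifen reads, at centers 7780 and 7760 bp from its left flank. None of these 5 gaps held more than 4 reads of a drug beyond the margin.

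Ranked by reads strictly inside, the leading gaps were mostly those with a strong position at the rim. For cyproterone acetate these were the gap from 128827897 to 128830102 (36.5 reads), from 249351172 to 249359312 (26 reads), from 243254642 to 243258322 (24 reads), from 147397292 to 147404177 (20 reads) and from 193083937 to 193091272 (19 reads). In the first, 30.5 of the reads lay 20 bp from the left flank, which itself had 8 and 1 control reads. The last was also first for tamoxifen with 27 reads, of which 23 lay 15 bp from the left flank. The other leading tamoxifen gaps ran from 115891152 to 115896412 (26 reads, at 5 bp from the right flank), from 161578292 to 161580632 (23.5 reads), from 24554857 to 24556922 (22.5 reads) and from 118904602 to 118906622 (22.5 reads). Beyond the margin these other 4 held 0, 0, 2 and 0 tamoxifen reads.

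Of these gaps, 2 kept most of their cyproterone acetate reads beyond the margin. The gap from 243254642 to 243258322 is 3680 bp long. It had 1 read of the shallower control on its left flank and 1 of the deeper control on its right flank. Inside it held 23 cyproterone acetate reads at 4 positions and 19 tamoxifen reads at 3 positions, the most of any gap for both drugs. Its strongest positions had 8 reads (cyproterone acetate, 670 bp from the nearer flank) and 10 reads (tamoxifen, 490 bp). Both treated libraries were high here, while both controls are at 0 by the choice of the gaps.

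The gap from 249351172 to 249359312 (8140 bp) held 19 cyproterone acetate reads beyond the margin, 12 of them at 1 position 680 bp from the right flank, against 5 tamoxifen reads. Its flanks had 2 and 1 reads (left) and 3 and 1 reads (right) in the shallower and deeper control. Positions with 8 or more treated reads and none in the pooled controls also lay outside gaps. There were 601 with cyproterone acetate and 317 with tamoxifen on chromosome 2, of which 16 and 11 lay inside gaps. Of all 798582 positions with cyproterone acetate reads, 7637 lay strictly inside gaps, and 3702 with the margin. For tamoxifen it was 5866 and 2643 of 700884. The choice of gaps favours positions without control reads, so nothing is read from these counts.

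In the authors' deposited table for cyproterone acetate, 423 of 3703 positions inside the gaps with the margin (11.4%) were higher in the treated library at an FDR of at most 0.05, against 5.86% of all positions. In the authors' deposited table for tamoxifen it was 817 of 2643 (30.9%), against 10.7% of all positions. The gaps were chosen for having no control position, which fixes this direction, so nothing is read from these shares. In the authors' deposited tables the called positions had as few as 2.5 (cyproterone acetate) and 2 (tamoxifen) reads.

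On the X chromosome treated reads entered control gaps more often. With the margin 54.0% of its 5203 gaps held cyproterone acetate reads and 46.0% tamoxifen reads. Densities were 12.2% (11.9 to 12.4%) and 10.2% (9.97 to 10.5%) of the means of that chromosome, above the 3.64% and 2.90% of chromosome 2. Coverage was lower there, with 1.95 and 2.11 reads per kb in the controls against 4.01 and 4.39, and its part in the difference was not tested.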

How the data were processed

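The data are tables of nucleosome positions from nuclease-digested sperm DNA. The submitters' processing notes name the tools Bowtie2 and SAMtools 1.4, and the build rn6. The program that called the positions is not named in these sources. Each row is a position of 200 bp. Summit occupancy was deposited as a scaled coverage signal. A fuzziness score was deposited for each side. The deposited log2 ratio of occupancy and FDR, an adjusted p-value, are the authors' own. In the treatment tables the side headed control was read as the treated library, since its values rise in steps of 1 size while those of the other side, the pooled controls, have 2. The control table does not tell replicate 1 from 2, so its libraries are called shallower and deeper. Another 32 columns of single libraries or the pool were not used here.

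Occupancy divided by its step (on chromosome 2 6.37 in the cyproterone acetate and 7.13 in the tamoxifen library, 8.44 and 7.60 in the controls) gave reads at the summit. All values were multiples of 0.5 reads within 0.0005 reads. Gaps, distances, read sums and exact Clopper-Pearson or Poisson intervals (95%) were computed with Python 3.11.15, numpy 2.4.6, pandas 2.3.3 and scipy 1.17.1. Gap finding and counting were tested on simulated positions. Intervals cover counting error only, as PCR copies are not told apart. Gaps named are the 5 longest, the 5 with most treated reads per drug, the 3 fullest windows of 1 Mb (with one more that tied) and the 3 fullest of 100 kb. Alternatives were other length limits, end-to-start distances, single controls, a margin of 150 bp and read limits. The members and lists were chosen with earlier results of these data known. The fuzziness of the single controls was not used here.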

Additional observations from a re-analysis of the deposited data

How the results depend on the processing

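Number of gaps: a lower limit of 3000 bp gave 3736 gaps and positions of at least 2 reads gave 10627, against 5676; from the end of one position to the start of the next it was 5119. From 1 control at a time it was 6643 to 7698, with a median length of 3266.5 to 3645 bp, and 4160 bp end to start, against 3953.5 bp. The share of gaps near another was 50.9% with the limit of 3000 bp, 49.5% at 5 kb and 90.8% at 50 kb, against 61.3% at 10 kb. The share holding treated reads fell from 72.7% to 41.5% (cyproterone acetate) and from 64.5% to 33.6% (tamoxifen) with the margin of 150 bp. With at least 2 reads it was 41.5% and 32.0%. From single controls without the margin it was 85.5% to 89.4% and 80.4% to 85.5%. Density of treated reads was 3.64% and 2.90% of the mean with the margin, against 7.83% and 6.78%. In gaps of the shallower control only, an alternative added after seeing the data, it was 15.8% and 13.2%, and in those of the deeper control only 9.69% and 8.39%. The limit of 3000 bp (shares with treated reads) and at most 3 reads per position (densities) moved these by less than their counting intervals. The low depth and the single library per drug limit all of these values. No paired analysis was possible because only the controls carry replicate numbers.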

Other observations

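Fuzziness scores were lower at and in the gaps. The headers give no unit for this score, so only its order is used. Among control positions with 2 reads in all, the median score of the pooled controls was 40.3 at 2494 flanking and 47.9 at 195846 other positions in the cyproterone acetate table. At 4 reads it was 43.2 and 46.5. The tamoxifen table, which holds the same pool, gave 40.7 and 48.1 at 2 reads. Inside the gaps, treated positions with 2 reads had a median score of 36.8 (cyproterone acetate, 861 positions), against 46.7 over all positions with 2 reads of that library. For tamoxifen it was 35.0 (599 positions) and 44.8. Positions at gaps also have fewer close neighbours, and the part of this in the difference was not tested.

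Of the 5 gaps with the most tamoxifen reads beyond the margin, a list chosen after the values were seen, 2 had many weak positions. The gap from 216546132 to 216552322 (6190 bp) held 13.5 cyproterone acetate reads at 7 positions and 14 tamoxifen reads at 8 positions, none above 4 reads. The gap from 220801002 to 220810632 (9630 bp) held 6 cyproterone acetate reads at 5 positions and 12 tamoxifen reads at 6 positions. In both gaps the flanks had at most 2 reads of either control.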
